A study of Mus musculus with 27 samples.

Results

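The nuclear factor I (NFI) family of the mouse comprises the genes Nfia, Nfib, Nfic and Nfix. The members were taken as the entries of the deposited table that carry these symbols, 4 of the 38168 features listed. Each symbol occurred once, so no choice between entries was needed, and all 4 members passed the filter on low values (1 CPM or more in 3 libraries or more). CPM is the number of reads of a feature per 1000000 reads of its library.

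NFI proteins are transcription factors that bind DNA as homodimers or heterodimers through a conserved amino-terminal domain and either activate or repress their targets. In the developing brain they are known for promoting the onset of gliogenesis and the maturation of neurons. In the retina, Nfia, Nfib and Nfix are known as factors of late-stage progenitors, which leave the cell cycle and give rise to late-born cells, bipolar cells and Müller glia among them. Nfic is known outside the nervous system for its part in tooth root formation.

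Whole retinas of wild type C57BL/6J mice were profiled by RNA-seq at embryonic day (E) 14 and E17 and postnatal day (P) 1, P6, P15, P28 and P60. The 27 libraries comprised 3 at E14, 3 at E17, 4 at P1, 3 at P6, 4 at P15, 4 at P28 and 6 at P60, with no treatment or mutation in any group, and age was the only factor. Retinas of several mice were pooled per library, except that part of the P60 libraries came from single mice. Sexes were mixed up to P1 and later libraries came from males. Age and sex therefore cannot be told apart where an age up to P1 is compared with a later one. This holds for the step from P1 to P6. It also holds for the mature ages (P15, P28 and P60) against the embryonic ages (E14 and E17), ratios of members included. Libraries held 7077781 to 11332323 reads, and the lowest correlation between libraries of an age was 0.977 or higher, except at P60, where it was 0.940. Rod and bipolar cell genes were present at high levels from P6 on, as described with the gene lists. In whole tissue, fewer cells of a type and less RNA per cell cannot be told apart.

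The members are distinct genes on 3 chromosomes (GRCm38 coordinates, GENCODE annotation). Nfia (Gene ID 18027) lies on the plus strand at chr4:97772734-98118874 and spans 346.1 kb. Nfib (Gene ID 18028) lies on the minus strand of the same chromosome, at chr4:82290173-82705750, and spans 415.6 kb. Nfic (Gene ID 18029) lies on the minus strand at chr10:81396186-81455635 and spans 59.5 kb. Nfix (Gene ID 18032) lies on the minus strand at chr8:84699876-84800344 and spans 100.5 kb. All 4 share a coding exon of 532 bases that encodes much of the DNA-binding domain. Of its 532 positions, 351 (66.0%) hold the same base in all 4 genes, and 135 of the 181 positions that differ (74.6%) are the third base of a codon. A stretch of 90 bases from this exon, in coding sense, is shown because, among stretches of this length in the exon, it held the most positions identical in all 4 genes, and it bears on whether short reads can be assigned to a member. Capitals mark the 22 positions at which the members differ, of which 21 are the third base of a codon.
Nfia, chr4:97783134-97783223, plus strand: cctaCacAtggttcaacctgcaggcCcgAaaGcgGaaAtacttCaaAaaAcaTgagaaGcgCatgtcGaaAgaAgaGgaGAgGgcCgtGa
Nfib, chr4:82498628-82498717, minus strand: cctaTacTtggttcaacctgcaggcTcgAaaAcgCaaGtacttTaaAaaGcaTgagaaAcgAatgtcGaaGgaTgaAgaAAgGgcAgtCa
Nfic, chr10:81420657-81420746, minus strand: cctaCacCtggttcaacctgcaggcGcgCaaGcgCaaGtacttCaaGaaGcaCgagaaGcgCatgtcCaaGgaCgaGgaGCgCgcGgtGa
Nfix, chr8:84772174-84772263, minus strand: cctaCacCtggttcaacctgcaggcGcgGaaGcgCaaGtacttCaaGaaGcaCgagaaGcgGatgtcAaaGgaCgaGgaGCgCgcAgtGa
Nfic and Nfix were the most similar pair over the whole exon, with 436 of 532 bases identical (82.0%), and Nfia and Nfic the least similar, with 403 (75.8%). The longest identical run between any pair was 32 bases, in Nfic and Nfix, and no stretch of 50 bases was shared between the transcripts of different members.

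Nfia was lowest at E14, rose to its highest level at P1 and was lower at later ages, though still above its E14 level. All P15 libraries lay above all P60 libraries. The E14 libraries held 13.2, 12.1 and 17.4 CPM, and the E17 libraries 51.5, 55.7 and 51.3 CPM. At P1 the libraries held 100.1, 83.2, 92.7 and 88.2 CPM, the highest of the series, with no overlap with any other age. The P6 libraries held 72.3, 78.0 and 65.8 CPM, the P15 libraries 71.3, 76.1, 71.8 and 70.4 CPM, and the P28 libraries 69.1, 68.1, 59.1 and 56.9 CPM. The 6 P60 libraries ranged from 49.9 to 59.1 CPM with a median of 55.1 CPM. From P15 down through P6, P28 and P60 to E17, each age overlapped the next in the order of means, whereas the 3 E14 libraries lay apart below all others. The mean rose 6.40-fold from E14 (14.2 ± 2.77 CPM, SD, n = 3) to P1 (91.1 ± 7.16 CPM, n = 4).

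Nfib rose steeply to P1 and fell back toward its E14 level by P15. It stood at 34.7, 41.5 and 42.4 CPM in the E14 libraries and at 110.3, 118.4 and 120.2 CPM in the E17 libraries. At P1 it reached 253.6, 223.1, 252.7 and 271.6 CPM, above every library of the other ages. The P6 libraries held 166.0, 192.7 and 180.9 CPM, and the P15 libraries 60.4, 63.6, 68.6 and 67.1 CPM, so that P15 lay below both P6 and E17 without overlap. The P28 libraries held 66.9, 55.6, 57.5 and 50.03 CPM. The P60 libraries ranged from 38.0 to 58.7 CPM with a median of 53.2 CPM, overlapping the E14 libraries. The P60 mean (50.7 ± 7.63 CPM, n = 6) was 20.3% of the P1 mean (250.3 ± 20.1 CPM, n = 4).

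Nfic rose late, and counted in CPM most of its rise came after P1. Its E14 libraries held 21.3, 18.9 and 20.1 CPM and its E17 libraries 23.5, 23.7 and 29.9 CPM. These ranges did not overlap, although the difference did not pass the test given with the steps between ages. The P1 libraries held 59.2, 66.3, 53.7 and 50.7 CPM, and the P6 libraries 137.6, 138.4 and 136.1 CPM, above all P1 libraries. At P15 it reached its highest mean, with libraries at 138.7, 144.3, 147.5 and 182.7 CPM, of which the last stood above all other libraries of the series. The P28 libraries held 135.5, 125.7, 133.0 and 132.7 CPM, and the P60 libraries ranged from 106.3 to 141.7 CPM with a median of 132.0 CPM. Of the neighbours in the order of means, only P28 and P60 overlapped, although P15 and P6 were separated by 138.7 against 138.4 CPM and P6 and P28 by 136.1 against 135.5 CPM. The mean rose 7.63-fold from E14 (20.1 ± 1.21 CPM, n = 3) to P15 (153.3 ± 19.9 CPM, n = 4).

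Nfix was near the detection limit at E14 and had the largest fold between its lowest and highest means, 97.5 (P6 to E14). The E14 libraries held 0.600, 1.58 and 1.26 CPM, which corresponds to 6, 15 and 12 reads, against a floor of 3 reads for a feature not seen. The E17 libraries held 13.1, 17.8 and 17.5 CPM, and the P1 libraries 101.2, 107.1, 82.0 and 91.4 CPM. These 3 ages were fully separated. The P6 libraries held 105.5, 122.9 and 107.4 CPM, which overlapped P1. The P15 libraries held 68.5, 70.8, 68.6 and 74.6 CPM and the P28 libraries 73.4, 59.8, 58.5 and 56.8 CPM. The P60 libraries ranged from 63.2 to 79.9 CPM with a median of 70.1 CPM, and P15, P28 and P60 overlapped one another in the order of means. The mean rose 14.0-fold from E14 (1.15 ± 0.500 CPM, n = 3) to E17 and 83.1-fold from E14 to P1 (95.4 ± 11.1 CPM, n = 4).

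**Figure D1:**
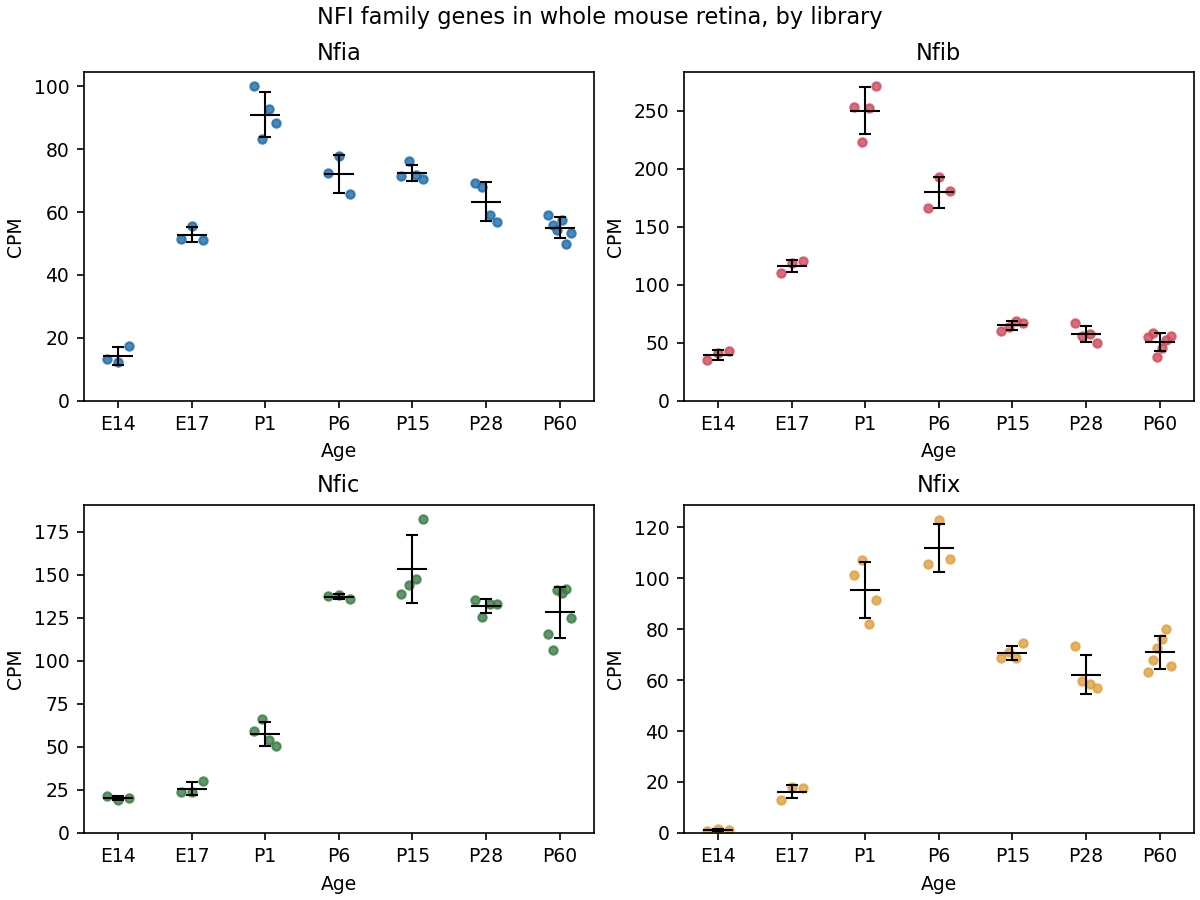
CPM of each member (vertical axes, from 0) by age (horizontal axes), with 1 point per library, a bar at the mean and whiskers of 1 SD. Nfia and Nfib are highest at P1, Nfix at P6 and Nfic at P15, where 1 library at 182.7 CPM stands above the others.

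All 4 members varied with age in an F test over the 7 ages (limma, adjusted p = 2.8e-19 for Nfia, 1.2e-20 for Nfib, 5.8e-23 for Nfic and 2.3e-26 for Nfix). Since 83.0% of all features passed this test, that by itself did not set the family apart. All fold changes given from here on were fitted on the log2(CPM + 1) scale, which understates changes of low genes, and adjusted p-values come from limma and were adjusted by the Benjamini-Hochberg method across the 31760 features of the fit.

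E14 was compared with P1 because retinal progenitors pass from their early to their late period in this interval. All 4 members were higher at P1, where 17.2% of all features were called higher and 10.6% lower. The log2 fold change was 2.61 (SE 0.10, adjusted p = 1.6e-19) for Nfia and 2.63 (SE 0.11, adjusted p = 2.3e-18) for Nfib. It was 1.47 (SE 0.11, adjusted p = 1.3e-12) for Nfic and 5.51 (SE 0.13, adjusted p = 8.0e-25) for Nfix. On this scale no other feature of the 31760 had a larger increase than Nfix, whereas 153 exceeded Nfia, 147 exceeded Nfib and 847 exceeded Nfic. The place of Nfix depended on how low values were treated. With a pseudocount of 0.1 in place of 1, 8 features had a larger increase, and in edgeR on the recovered reads 37 did. Without E14 replicate 1, in which Nfix had 6 reads, 2 features had a larger increase in limma and 62 in edgeR, and 1 had when entries of a symbol were summed or when P1 replicate 1, 2 or 4 was left out.

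Between E14 and E17, 3 members rose, at a background of 7.56% of features called higher and 3.02% lower. The log2 fold change was 3.01 for Nfix (SE 0.14, adjusted p = 1.4e-16), 1.84 for Nfia (SE 0.11, adjusted p = 3.2e-14) and 1.54 for Nfib (SE 0.12, adjusted p = 2.4e-11). For Nfic the value was 0.33 (SE 0.12, adjusted p = 0.060), which did not pass. It passed when only these ages were fitted (adjusted p = 0.013). Between E17 and P1 all 4 rose, against 5.77% of features called higher and 3.43% lower, by 2.50 for Nfix, 1.13 for Nfic, 1.10 for Nfib and 0.77 for Nfia on the log2 scale.

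From P1 to P6 the members moved in different directions. Nfic rose by 1.25 (SE 0.11, adjusted p = 3.2e-11), among 18.0% of features called higher. Nfib fell by 0.47 (SE 0.11, adjusted p = 0.0011) and Nfia fell by 0.33 (SE 0.10, adjusted p = 0.0084), among 20.4% of features called lower. The fall of Nfia did not pass without P6 replicate 3 (adjusted p = 0.067). The value for Nfix was 0.23 (SE 0.13, adjusted p = 0.17), which did not pass in the fit over all ages but did when only P1 and P6 were fitted (adjusted p = 0.028).

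From P6 to P15 Nfib fell by 1.46 (SE 0.11, adjusted p = 8.2e-12) and Nfix fell by 0.65 (SE 0.13, adjusted p = 2.2e-04), at a background of 19.0% of features called lower and 14.4% higher. Of all features, 99.0% had a larger log2 fold change than Nfib at this step. The values for Nfic (0.15, adjusted p = 0.31) and Nfia (0.01, adjusted p = 0.95) did not pass. From P15 to P28, none of the 4 members (0) passed in limma or in edgeR, with 2 at an unadjusted p under 0.05 in limma (Nfia at -0.19 and Nfic at -0.21) and 0 in edgeR. Here 1.14% of features were called higher and 1.58% lower. From P28 to P60 again 0 of 4 passed in either tool, with 1 at an unadjusted p under 0.05 in each, and Nfia stood at -0.20 in limma. In that interval 4.80% of features were called higher and 8.11% lower, a background that depended on the libraries and the fit. The features called numbered 4100 here, 23 when only these ages were fitted, and 1513 to 7517 with 1 library of these ages left out. In edgeR more were higher (2118) than lower (1363). Whether members differed from one another at a single step was not tested.

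**Figure D2:**
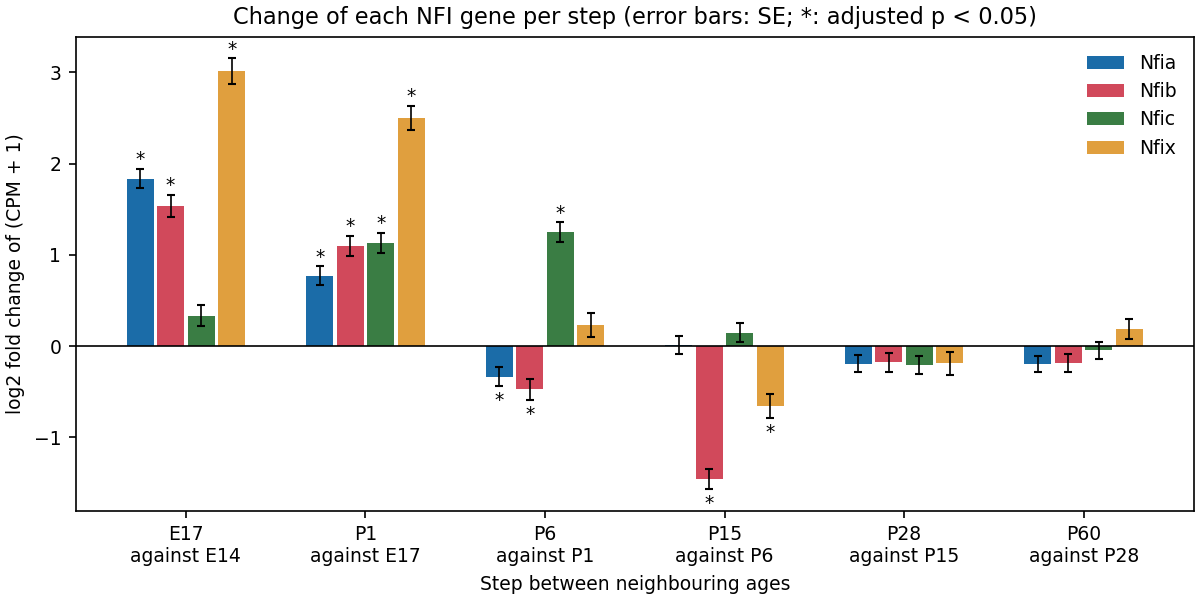
Log2 fold change of (CPM + 1) of each member (vertical axis) at each step between neighbouring ages (horizontal axis), with error bars of 1 SE and an asterisk where the limma adjusted p was under 0.05. Nfix has the largest bars at the first 2 steps, only Nfic has a called rise from P1 to P6, and Nfib has the largest fall, from P6 to P15.

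To set the mature against the embryonic retina, the mean of P15, P28 and P60 was compared with the mean of E14 and E17. Nfix was higher by 3.52 (SE 0.08, adjusted p = 1.4e-26), Nfic by 2.54 (SE 0.07, adjusted p = 4.0e-25) and Nfia by 1.17 (SE 0.06, adjusted p = 7.4e-17) on the log2 scale. Nfib was slightly lower, at -0.24 (SE 0.07, adjusted p = 0.0035), a call that edgeR on the recovered reads did not make (-0.14, adjusted p = 0.065). At this contrast 35.0% of all features were called higher and 40.4% lower. For Nfib the embryonic mean joined unlike ages, since 13 of the 14 mature libraries lay above all E14 libraries and all 14 lay below all E17 libraries.

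Whether the members changed by different amounts was tested directly, on the log2 ratio of (CPM + 1) of each pair in the 14 mature and 6 embryonic libraries (exact two-sided permutation test over 38760 regroupings, 6 pairs). The ratio of Nfix to Nfib rose most, by 3.80 on the log2 scale, from -3.52 ± 0.83 (SD, n = 6) in embryonic to 0.27 ± 0.27 (n = 14) in mature retina. The ratio of Nfic to Nfib rose by 2.80, that of Nfix to Nfia by 2.39 and that of Nfic to Nfia by 1.38, while that of Nfib to Nfia fell by 1.41. Each of these 5 differences had an exact p of 2.58e-05 (adjusted p = 3.1e-05), the smallest that these regroupings can give. The ratio of Nfix to Nfic rose by 1.001 (exact p = 0.017, adjusted p = 0.017). It rested on each E14 library, since it was 0.64, 0.81 and 0.75 without E14 replicate 1, 2 and 3, with an adjusted p of 0.058 each time. The rise held against E14 alone, since the ratio was -3.32 ± 0.44 at E14 (SD, n = 3) and -0.65 ± 0.22 at E17 (n = 3), the latter above the mature mean of -0.98 ± 0.17 (n = 14). It was highest at P1, at 0.72 ± 0.10 (n = 4). The embryonic libraries comprised 2 ages that differed from each other, so their spread includes a change with age. The test regrouped single libraries and not whole ages, so its p-values do not measure the spread between ages.

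Levels were compared between members per kilobase of annotated exon. The summed level of the family rose from 7.14 ± 0.43 CPM per kb at E14 (SD, n = 3) to 18.7 ± 1.14 at E17 (n = 3), 46.8 ± 1.74 at P1 (n = 4) and 54.6 ± 2.65 at P6 (n = 3). It then stood at 43.7 ± 3.41 at P15 (n = 4), 38.0 ± 2.22 at P28 (n = 4) and 37.4 ± 2.50 at P60 (n = 6). The P6 libraries, at 52.9 to 57.6 CPM per kb, lay above those of all other ages.

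The makeup of this sum changed from mostly Nfib and Nfic to mostly Nfic. At E14 Nfic held 42.6% ± 3.93 of the family's CPM per kb, Nfib 37.0% ± 2.95, Nfia 18.2% ± 2.46 and Nfix 2.18% ± 0.95 (SD, n = 3). At P1 Nfib held 35.8% ± 3.36, Nfix 27.7% ± 2.51, Nfic 18.5% ± 1.96 and Nfia 17.9% ± 1.32 (n = 4). At P60 Nfic held 51.5% ± 2.93, Nfix 25.8% ± 1.10, Nfia 13.6% ± 1.48 and Nfib 9.16% ± 1.85 (n = 6). Shares depend on the exon length assumed, and with the shorter basic annotation Nfib led Nfic at E14, at 47.7% against 33.9%, whereas Nfic still led at P60, at 47.0%.

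**Figure D3:**
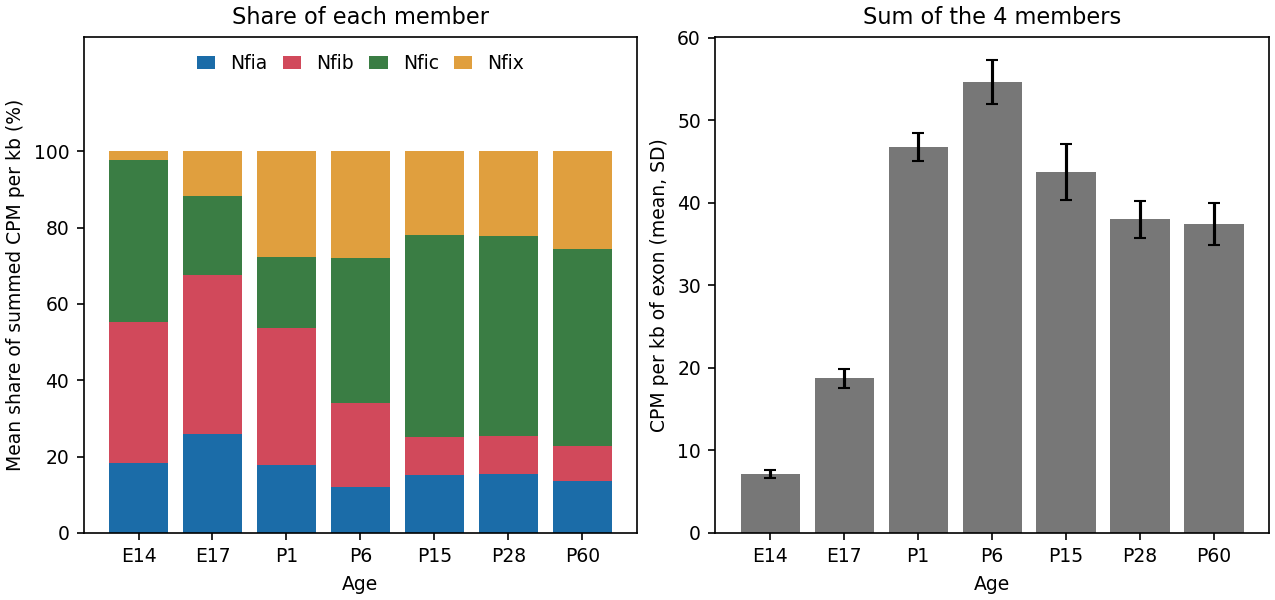
Left, mean share of each member in the family's summed CPM per kb of exon (vertical axis, percent) by age. Right, the summed level itself (CPM per kb, mean with error bars of 1 SD, 3 to 6 libraries per age). The share of Nfib shrinks from 35.8% at P1 to 9.16% at P60 and that of Nfic grows from 18.5% to 51.5%, while the sum is highest at P6.

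Genes that overlap a member were examined because the sources do not state whether reads were counted by strand. In the GENCODE annotation, Nfia and E130114P18Rik (chr4:97568133-97778078), on the opposite strand, share 4 exon bases. The RefSeq promoter of Nfia, at chr4:97581693-97581992, lies before the GENCODE start of Nfia and within the span of E130114P18Rik. The extent of this overlap therefore depends on the annotation, and the one used for counting is not known. E130114P18Rik followed another course, higher by 0.84 at P1 than at E14 (adjusted p = 4.1e-05) but lower in mature than in embryonic retina, at -1.41 (adjusted p = 1.3e-14). Nfix shares 137 exon bases with G430095P16Rik on the opposite strand, which rose by 2.38 from E14 to P1 (adjusted p = 1.1e-09) but had at most 6.43 reads per 1000000 in any library, against a P1 mean of 95.4 for Nfix. It also shares 4 exon bases with Lyl1, a gene of blood cell development with a mean of 0.277 CPM that did not pass the filter. The features Gm11267 and Gm11269, within Nfib and outside its exons, rose by 1.94 (adjusted p = 4.7e-09) and 2.05 (adjusted p = 1.2e-08) from E14 to P1, with at most 3.66 and 4.17 CPM in any library. Nfic shares 72 exon bases with the antisense gene Gm16104, which was not analysed here.

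Genes named in other work in connection with NFI factors formed a list of 8. From E14 to P1, 5 of these were higher and 2 lower, with a median log2 fold change of 1.16, against 0.05 over all features. Fabp7, a fatty acid binding protein of radial glia, rose by 3.83 (adjusted p = 1.2e-15), from 5.82 to 95.7 CPM. Gfap, an intermediate filament of astrocytes and reactive Müller glia, was at or below the floor of 3 reads in each E14 library and at 2.52 to 11.4 CPM at P1, at least 17.5-fold higher (adjusted p = 4.5e-07). Its P1 mean of 5.44 CPM was 3.44 CPM without P1 replicate 3, at least 11.1-fold higher. Zcchc24 rose by 2.33, Mmd2 by 1.43 and the Wnt inhibitor Apcdd1 by 0.89. Hes1, a Notch effector, and Ezh2, a histone methyltransferase, were lower, at -0.67 and -0.39, and the glial and progenitor factor Sox9 stood at -0.04 (adjusted p = 0.85). From P1 to P6, 2 of the 8 were higher and 4 lower, against 18.0% and 20.4% of all features. From P6 to P15, 1 was higher and 5 lower, against 14.4% and 19.0%. Between mature and embryonic retina 4 were higher and 4 lower, against 35.0% and 40.4%, with Mmd2 at 3.54 and Fabp7 at -3.22. Genes of the list thus followed unlike courses after P1, and whether the list differed from all features was not tested. For the lists below, the shares over all features are those given above with each comparison.

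Of 6 markers of late progenitors, 4 were higher and 1 lower at P1 than at E14, with a median of 2.18. From E14 to E17, 5 were called higher, and from E17 to P1, 2 were. Crym, a thyroid hormone binding protein, rose by 3.31, Car2, a carbonic anhydrase, by 3.10 and Sox8 by 2.88, while Dkk3 was lower, at -0.17 (adjusted p = 0.036), and Olig2 stood at 0.21 (adjusted p = 0.40). From P1 to P6, 2 were higher and 4 lower, with Olig2 at -2.77 (adjusted p = 1.1e-14) and Sox8 at -2.34 (adjusted p = 4.1e-17). Sox8 fell from a mean of 180.9 CPM at P1 to 35.0 at P6 and 17.5 at P15. Of the members, Nfib kept the smallest part of its P1 level at P60, the 20.3% given above.

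All 9 early progenitor genes were lower at P1 than at E14, with a median of -2.58. Sfrp2, a secreted Wnt modulator, fell by 4.55 (adjusted p = 3.4e-18), Atoh7, which specifies ganglion cells, by 4.38 (adjusted p = 1.7e-15), Fgf15 by 3.02 and Dlx1 by 2.96. Of 6 proliferation genes, 2 were lower at P1 than at E14, Mcm2 at -0.58 and Ccnb1 at -0.51, and Mki67 stood at 0.06 (adjusted p = 0.92). From P1 to P6 all 6 were lower, with a median of -4.21, and Ccnd1, cyclin D1 of progenitors, went from 1490 to 79.5 CPM. Over that step Nfib fell by 0.47 and Nfia by 0.33, as given with the steps between ages. Nfic rose by 1.25 and Nfix, at 0.23, had no called change.

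Among Müller glia genes, 5 of 10 were higher and 1 lower at P1 than at E14, with a median of 0.52. Rlbp1, a retinaldehyde binding protein, rose by 3.08 (adjusted p = 3.6e-16), the potassium channel Kcnj10 by 2.94, Gpr37 by 1.57 and Apoe by 1.27, and Vim was lower, at -1.33. From P1 to P6, 5 were higher and 2 lower, and from P6 to P15, 7 were higher and 2 lower. At this last step Aqp4, a water channel, rose by 4.60, Clu by 2.84, Abca8a by 2.83 and glutamine synthetase, Glul, by 2.79, while Vim stood at -0.81 and the glutamate transporter Slc1a3 at -0.70. Between mature and embryonic retina 8 were higher and 2 lower, with a median of 2.83. The step from P6 to P15, with rises of 7 Müller glia genes and falls of Vim and Slc1a3, also held falls of Nfib and Nfix. Nfia and Nfic had no called change there, and no relation to the glial genes was tested. The rise of Glul at this step started from its lowest age mean, with 151.7 CPM at P1, 76.1 at P6 and 531.2 at P15.

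Bipolar cell genes rose mainly between P1 and P6, where all 10 were called higher, with a median of 3.47. Grm6, the glutamate receptor of ON bipolar cells, rose by 6.82, Trpm1 by 5.63 and Grik1 by 3.82. Vsx1, at 3 reads or fewer in each P1 library, was at least 145.5-fold higher at P6. With the 3 genes that were at this floor at P1 set to their bounds, the median was 4.25. From E14 to P1, 3 were higher and 2 lower. From P6 to P15, 6 were higher and 2 lower, with Vsx1 at -0.86. Between mature and embryonic retina 9 were higher and 1 was lower, with a median of 4.63 (4.76 with the 1 gene at the floor at its bound).

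Amacrine cell genes, all 7, were higher at P1 than at E14, with a median of 2.51, or 2.82 with the 1 gene at the floor at E14 set to its bound. Gad1, a GABA-synthesizing enzyme, rose by 4.85, Tfap2a by 3.53, Tfap2b by 2.81 and the GABA transporter Slc32a1 by 2.51. From P1 to P6, 3 were higher and 3 lower. Of the 8 rod genes 7 were higher at P1 than at E14 and none was called lower, and all 8 were higher at P6 than at P1, with a median of 4.51. Nrl, the rod-specifying factor, went from 0.964 CPM at E14 to 40.5 at P1 and 299.5 at P6. From P6 to P15, 7 of 8 rose and the rod factor Nr2e3 fell by 1.29. Between mature and embryonic retina all 8 rod genes were higher, with a median of 8.73 (9.03 with the 1 gene at the floor at its bound), and 6 of 7 amacrine cell genes were higher, with Gad2 lower at -0.64. The share of the members' reads that came from any of these cell types was not measured.

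**Figure D4:**
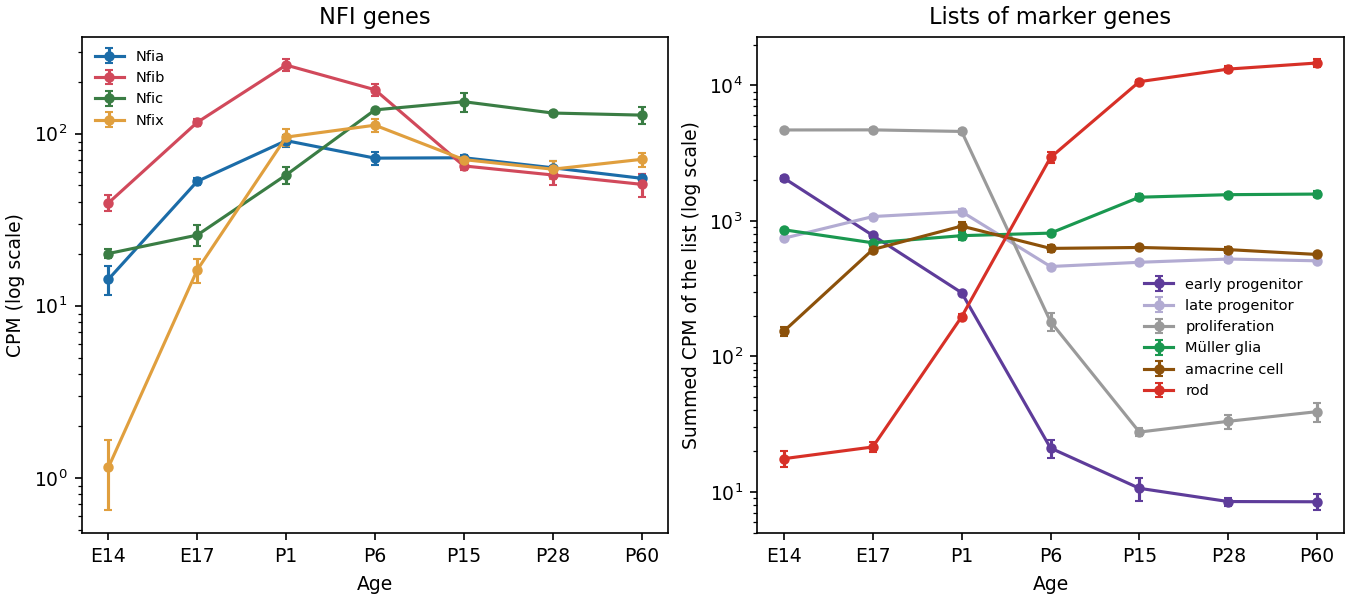
Mean CPM of the members (left) and mean summed CPM of 6 lists of marker genes (right) by age, on log axes with error bars of 1 SD over 3 to 6 libraries. From E14 to P1 the NFI genes rise while the early progenitor list falls, and all but Nfic reach their highest mean by P6, while the rod list rises to P60.

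Markers of cells other than retinal neurons and Müller glia were followed because astrocytes, among others, are known to use NFI factors. The summed level of 5 astrocyte markers went from 8.20 to 10.95 CPM in the E14 libraries to 49.9 to 58.6 CPM at P6 and 18.6 to 32.6 CPM at P60, and 1 of the 5 was at 3 reads or fewer in every E14 library. The P6 level was mostly that of Pdgfra (41.9 CPM, against 11.0 at P15), and the other 4 summed to 7.27 CPM at E14, 13.5 at P6 and 16.1 at P60. The sum of 8 vessel markers was 168.9 to 185.0 CPM at E14, 431.9 to 501.2 CPM at P1 and 238.3 to 260.8 CPM at P60, with 2 of the 8 at 3 reads or fewer at E14. The rise from E14 to P1 was mostly that of Kdr, a receptor that retinal cells also express, at a mean of 166.8 CPM at E14 and 457.0 at P1. At P60 the mean of Kdr was 119.2 CPM. The other 7 vessel markers summed to 10.4 CPM at E14, 20.1 at P1, 114.8 at P6, 194.9 at P15 and 131.0 at P60. The part of these cells in the members' values was not tested. The age means of 5 microglia markers were 14.6 to 24.5 CPM, those of 6 retinal pigment epithelium markers 5.91 to 28.1 CPM, those of 6 lens markers 4.68 to 7.27 CPM and those of 5 blood markers 13.6 to 45.0 CPM.

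Likeness of course was described by Pearson's r over the 7 age means of log2(CPM + 1), among 10726 features with a Gene ID and a mean of at least 10 CPM. The points of such a correlation are ages that every gene shares, so high values are common, and r takes no account of size. Within the family, Nfia and Nfix were most alike (r = 0.95), followed by Nfic and Nfix (0.84), Nfia and Nfic (0.67), Nfia and Nfib (0.64) and Nfib and Nfix (0.52). Nfib and Nfic had the least in common (r = 0.04).

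The 5 genes most like Nfia were Pde7b, a cyclic AMP phosphodiesterase (r = 0.993), the potassium channel gene Kcnq3 (0.992), Galnt15 (0.989), Phf24 (0.989) and 1700012D14Rik (0.987). Those most like Nfib were Parp8 (0.991), the kainate receptor gene Grik3 (0.990), Gin1 (0.990), the peptidase gene Dpp8 (0.990) and A930011G23Rik (0.989). Grik3 spanned 3.03 on the log2 scale over the ages, whereas Dpp8 spanned 0.29. Those most like Nfic were Pitpnm3 (0.999), Dstyk (0.996), Nrl (0.995), Dhdds (0.995) and Rd3 (0.995), of which Nrl is a rod factor and Rd3 is a photoreceptor protein. Nrl spanned 7.62 and Rd3 6.38 on the log2 scale. Those most like Nfix were Prelp, a matrix protein (0.996), Hook1 (0.993), Tpd52 (0.991), Ypel3 (0.984) and Tbkbp1 (0.984). With Spearman's rho in place of r, 2 of the 5 genes stayed among the first 5 for Nfia, 2 for Nfib, 0 for Nfic and 0 for Nfix.

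Promoters from RefSeq (GRCm38.p6, 250 bases before to 50 after each start) were searched on both strands for the NFI palindrome TTGGCNNNNNGCCAA and for its single arm, TTGGC or GCCAA. The palindrome was in 12 of 32851 promoters (0.0365%) and in none of the promoters given for the family or the lists below. Not every listed gene had a promoter entry. Entries covered 5 of 8 NFI-linked genes, 2 of 6 late progenitor genes and 7 of 9 early progenitor genes. They covered 8 of 10 Müller glia genes and 8 of 10 bipolar cell genes. The single arm was in 46.7% of all promoters. It was in 3 of the 6 promoters given for Nfia, Nfic and Nfix, all 3 of them of Nfix. Among the lists, it was in 4 of 5 promoters of NFI-linked genes and 6 of 10 of Müller glia genes. The counts were 4 of 6 for rod genes, 3 of 5 for proliferation genes and 2 of 2 for late progenitor genes. They were 3 of 7 for early progenitor genes, 5 of 12 for bipolar cell genes and 4 of 10 for amacrine cell genes. These are matches of letters within short windows, and Nfib had no entry.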

How the data were processed

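RNA-seq of whole retina of C57BL/6J mice was analysed at 7 ages in 27 libraries, grouped by the age in their labels. Libraries were prepared with the SMARTer total RNA kit, and reads were aligned with STAR to mm10, per the submitters' processing notes. The authors deposited CPM values (reads of a feature per 1000000 reads of the library), with 1 column per library. The annotation and any use of strand in counting are not given in the sources used here. Every value came out as whole reads (100.0% within 0.02 reads), which gave 7077781 to 11332323 reads per library behind the CPM values. These are not all the reads sequenced. A count of 0 allows up to 3 reads, and such limits cover counting error only.

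The values were taken as log2(CPM + 1). The 31760 features that reached 1 CPM in 3 libraries or more were fitted by limma 3.58.1 (R 4.3.3) with a mean-variance trend, age as the factor and all libraries, and called at an adjusted p under 0.05 (Benjamini-Hochberg over all features tested, two-sided). In the fits, mature stands for the mean of the P15, P28 and P60 means and embryonic for that of the E14 and E17 means. For ratios of members, each stands for the mean over its libraries, so ages with more libraries weighed more. Ratios of members were tested by exact permutation over libraries in Python 3.11.15. The alternatives were a smaller pseudocount (0.1), all features kept, a mean of at least 10 CPM, median-of-ratios scaling, a replicate block, edgeR 4.0.16 (quasi-likelihood, TMM) on the recovered reads, the same without E14 replicate 1, only the ages compared, summed entries of a symbol, and each library left out. The scripts were tested on simulated data. The labels do not say that libraries came from separate litters, so p-values measure the spread between these libraries.

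The genes named are the 4 members, annotated genes that overlap them, up to 4 genes per list with the largest change in the comparison described and those against the majority of their list, and the 5 genes most like each member. Some list genes that this rule names are counted but not reported singly here. A gene described for its level was chosen after its values were seen. The members and lists were chosen with earlier results of these data known, and the lists come from general knowledge of the field. Gene positions, exon lengths and exon sequences come from GENCODE (GRCm38) and promoters from RefSeq.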

Additional observations from a re-analysis of the deposited data

How the results depend on the processing

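Of 1720 values recomputed under alternatives, 1697 kept their direction and their side of the threshold, or stayed within the spread. The mature against embryonic difference of Nfib was -0.14 in edgeR (adjusted p = 0.065), which left 3 of 4 members called. With each library left out in turn, the log2 ratio of Nfix to Nfic differed by 0.637 to 1.319 between mature and embryonic retina. Directions reversed only for changes that were never called. Nfia from P6 to P15 was -0.053 without P6 replicate 3 and -0.014 without P15 replicate 2, the lowest of a range up to 0.068 with single libraries left out. Nfic from P28 to P60 was 0.022 with median-of-ratios scaling, 0.022 in edgeR, 0.022 in edgeR without E14 replicate 1 and 0.0039 without P60 replicate 2, the highest of a range from -0.078 with single libraries left out. Nfic from E14 to E17 passed the threshold under 6 alternatives, with adjusted p-values from 0.013 to 0.050. The cause of these shifts was not tested. Counts over all features moved by more than 1.5 times as follows. From P28 to P60, 4100 features were called, against 1029 with the replicate block, 23 with only the ages compared, 1513, 1516, 2045 and 2680 without P28 replicate 1, 2, 3 and 4, and 7425, 7517, 2090, 2063 and 1944 without P60 replicate 1, 2, 3, 4 and 5. From P15 to P28, 864 were called, against 1655 with only the ages compared, 534 without P15 replicate 3 and 497 without P28 replicate 4. With only the ages compared, 7705 in place of 3359 were called from E14 to E17 and 5298 in place of 2924 from E17 to P1. A mean of at least 10 CPM, which tests fewer features, gave 11370 against 23951 for mature against embryonic, 5478 against 8835 for P1 against E14, 7398 against 12178 for P6 against P1, 6879 against 10610 for P15 against P6 and 12569 against 26355 for the F test.

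Same-numbered libraries of different ages deviated from their age means with a correlation of -0.118 to 0.167 over 63 pairs of libraries. The highest values were 0.167 for replicate 1 and 0.109 for replicate 2, both of P15 with P60. Correlations between libraries with unlike numbers were not computed, so these values cannot tell whether replicate numbers pair the libraries. The replicate block changed the call of 0 of 36 results for members, and put the mature against embryonic difference of Nfib at -0.25 (adjusted p = 0.0074).

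Depth limits the E14 values of Nfix most, which rest on 6 to 15 reads per library.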
